A study of Homo sapiens with 6 samples.

Results

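The genes described were promoter-divergent transcripts, noncoding RNAs that start at the promoter of a protein-coding gene and run the other way, and that carry the name of that partner gene followed by -DT. Members were chosen by name and by measured counts: they are the genes of that name form with at least 60 counts summed over the 6 libraries, which gave 187 of 428 such genes among 61541 genes. H9 is a human cutaneous T-cell lymphoma line, labelled wild type (WT). It was treated with vehicle (DMSO, 3 libraries) or with AZD4573, a selective inhibitor of the kinase CDK9 (3 libraries). AZD4573 was given for 4 h by the labels and at 50 nM by the legends of the study. The labels of the DMSO libraries give no time. All libraries came from this single line, and the labels do not say whether replicates were separate cultures, so the p-values measure only the spread between these samples, which may be technical. The minimum of 60 counts used the counts of both groups together and not their difference, although 13 members reached it with fewer than 30 counts in the DMSO libraries and 8 with fewer than 30 in the AZD4573 libraries.

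Mammalian promoters are often transcribed in both directions. The polymerase that runs upstream usually stops early, at polyadenylation signals near the start, and the RNA it leaves is brought to the nuclear exosome by adaptor complexes and degraded, whereas U1 snRNP bound at splice sites protects transcription in the coding direction. CDK9 is the kinase of P-TEFb, which releases paused RNA polymerase II (RNAP2) into elongation and also acts on termination factors. Some divergent transcripts are stable enough to be annotated as genes of their own, most of them as long noncoding RNA genes.

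By GENCODE release 44 (GRCh38), each of the 187 members lay on the strand opposite to its partner, and all 187 partners were protein coding. The biotype was lncRNA for 186 members and transcribed pseudogene for the other. The signed offset between the 2 annotated starts had a median of 65 bases. This offset is negative where the 5′ ends overlap, so its median is not a median distance. Regardless of direction, the starts lay within 100 bases in 68 pairs and within 1000 bases in 172. The 2 genes pointed apart without overlap in 128 pairs, while their 5′ ends overlapped in 59. Exons covered 242 to 35212 bases (median 2727), in a single block for 57 members. The counting did not use the strand of the reads, so that reads from bases shared by a member and another gene cannot be told apart. This concerned 93 members, of which 55 shared exon bases with their own partner, and the other 94 shared none.

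The space between the starts is short enough to be read as letters. The 250 bases upstream of the partner's start are given for 5 pairs on which the results turn, 3 in which both genes changed (SAP30, MAFG and PCCA) and a pair each with a large rise (NUP50) and a large fall (UBA6) of the divergent transcript alone. The sequences are from RefSeq (GRCh38.p14), printed 5′ to 3′ on the strand of the partner. Capitals mark matches, on either strand, to the motifs searched: the TATA box TATAAA, the CCAAT box CCAAT, the GC box GGGCGG, the ETS core CCGGAAG, the CRE core site TGACG and the E box CACGTG.
SAP30: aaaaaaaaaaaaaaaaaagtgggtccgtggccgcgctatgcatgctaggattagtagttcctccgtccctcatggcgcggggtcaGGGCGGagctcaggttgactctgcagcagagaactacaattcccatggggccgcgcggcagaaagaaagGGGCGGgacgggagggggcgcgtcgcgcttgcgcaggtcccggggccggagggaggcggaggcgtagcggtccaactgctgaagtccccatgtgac
NUP50: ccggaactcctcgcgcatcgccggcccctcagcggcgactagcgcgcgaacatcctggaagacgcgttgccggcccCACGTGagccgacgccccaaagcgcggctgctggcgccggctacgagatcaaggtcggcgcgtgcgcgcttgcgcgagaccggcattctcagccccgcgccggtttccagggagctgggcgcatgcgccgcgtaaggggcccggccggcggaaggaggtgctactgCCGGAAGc
MAFG: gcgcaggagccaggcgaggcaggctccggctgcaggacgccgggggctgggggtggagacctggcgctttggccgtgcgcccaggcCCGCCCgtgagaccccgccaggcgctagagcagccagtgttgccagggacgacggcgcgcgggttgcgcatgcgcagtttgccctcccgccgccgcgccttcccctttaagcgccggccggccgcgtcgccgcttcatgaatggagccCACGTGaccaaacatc
PCCA: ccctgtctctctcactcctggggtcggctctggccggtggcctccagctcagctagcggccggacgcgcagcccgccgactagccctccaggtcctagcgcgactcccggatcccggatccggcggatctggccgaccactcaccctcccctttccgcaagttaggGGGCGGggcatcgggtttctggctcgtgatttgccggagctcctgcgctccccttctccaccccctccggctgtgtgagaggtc
UBA6: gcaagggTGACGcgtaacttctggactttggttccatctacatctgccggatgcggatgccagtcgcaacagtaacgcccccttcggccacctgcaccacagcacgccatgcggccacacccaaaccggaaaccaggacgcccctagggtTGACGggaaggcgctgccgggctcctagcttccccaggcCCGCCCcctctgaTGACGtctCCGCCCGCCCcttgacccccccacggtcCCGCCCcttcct
The windows lie at chr4:173370704-173370953 (plus strand) for SAP30, chr22:45163675-45163924 (plus) for NUP50, chr17:81927736-81927985 (minus) for MAFG, chr13:100088843-100089092 (plus) for PCCA and chr4:67701156-67701405 (minus) for UBA6. The annotated start of the divergent transcript falls inside each of them, 233 bases before the RefSeq start of SAP30, 114 before that of NUP50, 94 before that of MAFG, 121 before that of PCCA and 54 before that of UBA6. GC boxes were found in the windows of SAP30 (2), MAFG (1), PCCA (1) and UBA6 (4), where CCGCCC is the same box on the other strand. An E box was found in the windows of NUP50 and MAFG, an ETS core in that of NUP50 and 3 CRE core sites in that of UBA6, and none of the 5 windows held a TATA or CCAAT box.

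RefSeq promoters (250 bases before to 50 after the start) matched 142 members and 158 partners. The GC box was present in 77.5% of the promoters of divergent transcripts and 71.5% of those of partners, and in 44.6% of all 27305 promoters and 58.5% of 15843 protein-coding ones. The ETS core was present in 30.3% and 33.5%, in 10.7% of all promoters and in 14.2% of protein-coding ones. The CRE core site was present in 47.2% and 44.9%, in 25.0% of all and in 29.5% of protein-coding ones. The TATA box was present in 2.82% of the promoters of divergent transcripts, 6.33% of those of partners, 12% of all promoters and 9.63% of protein-coding ones. Median GC content was 68.5% for divergent transcripts, 67.0% for partners, 58.3% for all promoters and 62.7% for protein-coding ones. Its part in the motif shares was not tested. The promoters of the 2 sides of a pair can share bases, to an extent that depends on the offset between their starts. The motif shares of the 2 sides are therefore not independent of each other. In the first 1000 bases of genomic sequence downstream of the annotated start, read on the sense strand, the polyadenylation signal AATAAA occurred in 35.3% of divergent transcripts (66 of 187), 15.5% of partners and 22.4% of 20046 protein-coding genes. The strong 5′ splice site GTAAGT occurred in 16.6%, 11.8% and 17.5%. AATAAA was found in 30.4% of the members called higher upon AZD4573 treatment, 35.1% of those not called and 47.4% of the 19 called lower, and none of these shares was tested.

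Divergent transcripts were present at low levels. The median member had 0.838 CPM (the counts of a gene divided by the total of its library, in the usual unit CPM) in DMSO and 0.972 CPM in AZD4573, against 49.0 and 40.7 CPM for the median partner. Levels of at least 1 CPM were reached by 81 members in DMSO and by 92 in AZD4573, and levels of at least 10 CPM by 7 and 8. Per kilobase of exon, the median level was 0.293 CPM for members and 8.32 CPM for partners in DMSO, and 0.359 and 5.47 CPM in AZD4573. The median member thus stood at 4.16% of its own partner per length in DMSO and at 7.84% in AZD4573. In each condition 11 members lay above their partner per length, EMSY-DT among them with 12.4 CPM per kilobase against 3.08 for EMSY in DMSO.

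Total counts were 70367303 to 76571157 with DMSO and 52101868 to 63795185 with AZD4573, and a count of 0 allowed up to 0.0392 to 0.0576 CPM per library (3 counts of the total, counting error only). Transcripts of the 13 mitochondrially encoded mRNAs, which RNAP2 does not make, took 3.04 to 3.22% of the counts in DMSO and 4.67 to 4.98% in AZD4573. Of 13 T-cell markers, 12 passed the filter on low counts, with CD3D, CD3E, CD3G, TRAC, LCK and ZAP70 present, whereas CD2 did not pass it and stood at 0.0568 to 0.170 CPM in DMSO. The summed level of the T-cell markers was 2113 to 2118 CPM in DMSO and 2858 to 2901 in AZD4573. The B-cell marker CD79A was present and was called higher (log2 fold change 0.70), with 57.6 to 62.8 CPM for all 4 B-cell markers in DMSO and 87.1 to 94.7 CPM in AZD4573, while MS4A1 and PAX5 were near 0. The sum of 4 epithelial markers, with EPCAM present, was 160 to 177 CPM in DMSO and 131 to 138 CPM in AZD4573. The sum of 4 myeloid markers was 0.0522 to 0.199 CPM in DMSO and 0.972 to 1.88 CPM in AZD4573, with MPO at 0 in each DMSO library and at 0.643 to 1.57 CPM in AZD4573, where it was called higher, as was CD14 at up to 0.282 CPM. Erythroid markers summed to 0.0142 CPM at most. The part of these other markers in the results was not tested.

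Upon AZD4573 treatment more divergent transcripts rose than fell, and more of their partners fell than rose. A gene was called with an adjusted p under 0.05 (edgeR's quasi-likelihood test, Benjamini-Hochberg adjustment over 17678 genes) and a fold change of at least 1.5. Of the 185 members tested, 69 were higher (37.3%) and 19 lower (10.3%), where 22.7% of all genes tested were higher and 23.7% lower. Some called members reached the minimum of summed counts mainly through a single group. SEC61G-DT, PIWIL2-DT and SNRPA1-DT were such members among the higher, and ITPRID2-DT and USP27X-DT among the lower. Both shares therefore rest in part on that minimum. When at least 10 counts were required in every library, more members were still higher than lower. Among the 185 partners tested, 15 were higher (8.11%) and 61 lower (33.0%). The median log2 fold change was 0.39 for members, −0.27 for partners and 0.03 for all genes tested. As these values are shares of a library, more RNA of a member and less RNA of the other genes per cell cannot be told apart. When the 13 mitochondrial mRNAs set the scale instead of TMM, the median of all genes was −0.71, and 29 members were higher and 67 lower, against 4 and 134 partners, so that the balance among members turned with the scale while the order of the 2 groups did not.

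**Figure D1:**
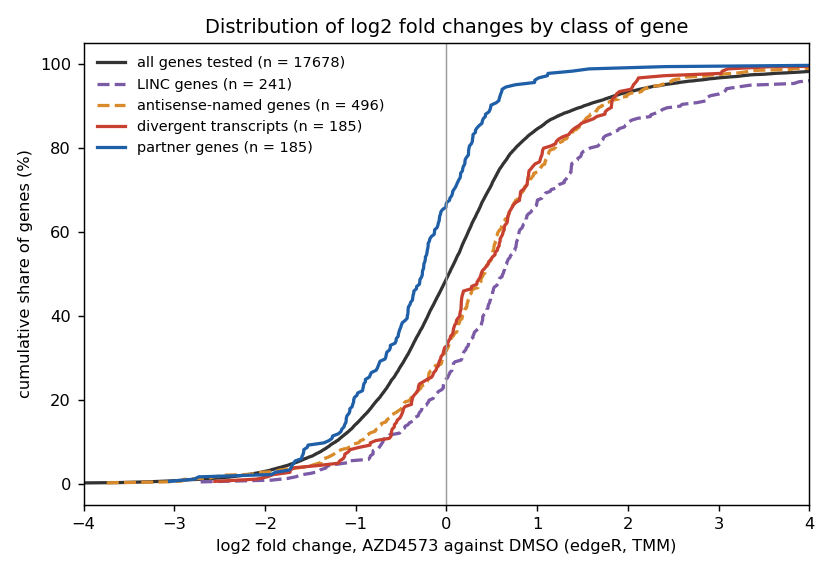
Cumulative share of genes (vertical axis, percent) by log2 fold change, AZD4573 against DMSO (horizontal axis), for all genes tested, divergent transcripts, their partner genes, and the antisense-named and LINC genes with at least 60 counts. The curve of divergent transcripts (median 0.39) lies to the right of that of all genes (0.03), close to that of antisense-named genes (0.42) and left of that of LINC genes (0.63), and the curve of partner genes (−0.27) lies to its left.

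Other noncoding genes with at least 60 counts gave shares near those of the members. Of 496 antisense-named genes tested, 177 were higher (35.7%) and 69 lower (13.9%), with a median of 0.42. Of 241 LINC genes, the intergenic noncoding genes, 106 were higher (44%) and 23 lower (9.54%), with a median of 0.63. The differences between these classes were not tested. Each AZD4573 library lay above each DMSO library for 77 of 185 members and below for 39, where 34.2% of all genes lay above and 42.9% below. The other 2 of the 187 members did not pass the filter on low counts.

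Summed over all 187 members, the level was 384 ± 14.2 CPM (SD, n = 3) in DMSO and 487 ± 7.97 CPM (n = 3) in AZD4573, 26.8% higher, and the groups did not overlap (369 to 398 against 478 to 493 CPM). The sum of the partners was 17048 ± 56.1 CPM in DMSO and 15205 ± 166 CPM in AZD4573. NUP50-DT alone gained 32.5 CPM, FMNL1-DT 17.1 and EMSY-DT 10.3, and without NUP50-DT the sum was 18.5% higher (380 to 450 CPM). The largest losses were in WDR5B-DT (−5.67 CPM), UBA6-DT (−5.16) and MAFG-DT (−4.48). Relative to the mitochondrially encoded mRNAs, the summed counts were 1.23% ± 0.0102 in DMSO and 1.00% ± 0.0174 in AZD4573, which is 18.3% lower.

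The ratio of a member to its partner within a library does not depend on how libraries are scaled. Differences of the log2 ratio (log2 CPM with a prior count of 2, which understates changes of low genes) were tested with limma over 654 genes named for a partner (-DT, -AS, -IT and -OT), and called with an adjusted p under 0.05 and a difference of at least 1.5-fold. Among the 183 divergent pairs with both genes tested, the ratio was called higher in 90 (49.2%) and lower in 18 (9.84%), with a median difference of 0.71, where 41% of all named pairs were higher and 14.7% lower. The higher pairs include SEC61G-DT and SNRPA1-DT, which reached the minimum of summed counts through the AZD4573 libraries. The ratio lay above in every AZD4573 library in 102 of 183 pairs and below in 24, where 48.6% of all named pairs lay above and 18% below. Pairs of antisense-named genes gave 175 higher of 462 (37.9%) and 75 lower (16.2%), with a median of 0.37. The difference between these 2 kinds of pairs was not tested.

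**Figure D2:**
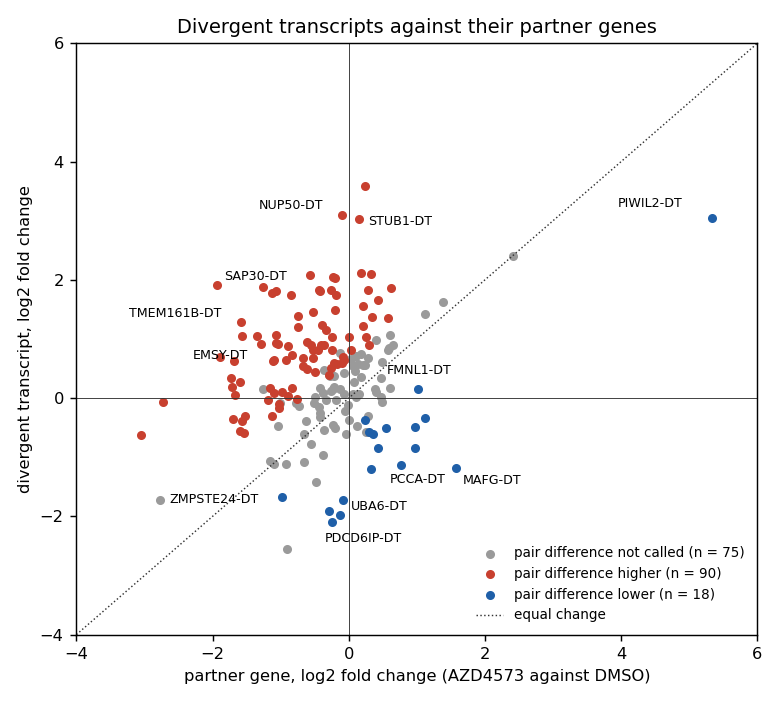
Log2 fold change of each divergent transcript (vertical axis) against that of its partner (horizontal axis), AZD4573 against DMSO, 183 pairs, coloured by the limma call of the pair difference (90 higher, 18 lower, 75 not called) and with the line of equal change dotted. SAP30-DT lies far above the line (1.91 against −1.93) and MAFG-DT far below it (−1.18 against 1.57). SEC61G-DT (7.61, from 0 counts in each DMSO library) lies above the range of the vertical axis and is not seen.

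The changes of the 2 sides of a pair had a Pearson r of 0.21 and a Spearman rho of 0.12 (over 183 pairs that share libraries and promoters, given as a description). The member was higher and its partner lower in 18 pairs, and the reverse held in 3. Both were higher in 8 pairs and both lower in 7. In 42 pairs only the member was called higher and in 9 only the member was called lower, while in 35 only the partner was called lower and in 4 only the partner was called higher. Neither was called in 57. Of the 60 members tested whose partner was lower, 18 were higher (30%, where 22.7% of all genes tested were). This share was below the 37.3% of all members tested and the 38.9% (42 of 108) of those whose partner was not called. The differences between these shares were not tested. The pair ratio was called higher in 46 of the 60 pairs with a lower partner (76.7%, against 41% of all named pairs). Choosing pairs by a lower partner, the denominator of the ratio, makes a higher ratio in part a given. Of the 15 members whose partner was higher, 8 were higher and 3 lower.

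In the 18 pairs whose genes changed in opposite directions with the member higher, the member's log2 fold change ran from 0.64 (MAP4K3-DT) to 1.91 (SAP30-DT) and the partner's from −0.62 (ZNRD2) to −1.93 (SAP30). The pair difference ran from 1.35 (PAXIP1) to 3.78 (SAP30), with adjusted p from 1.3e-05 to 0.0027 (limma). Choosing pairs by both calls in the same libraries makes a large difference mostly a given. These p-values are therefore a description and not a separate test. SAP30-DT, RPAP3-DT, MIOS-DT, RELA-DT, MAP4K3-DT and TMEM161B-DT shared exon bases with another gene, and the others shared none.

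SAP30 is a subunit of the Sin3A histone deacetylase complex, and its pair had the largest difference of the 183. SAP30-DT (chr4:173349543-173370721) stood at 0.535, 0.384 and 0.454 CPM in the DMSO libraries and at 1.55, 1.72 and 1.55 CPM in the AZD4573 libraries. SAP30 stood at 28.9, 25.9 and 26.7 CPM in DMSO and at 6.64, 6.80 and 6.46 CPM in AZD4573. The groups did not overlap for either gene, and the levels of the 2 genes came closer together as the lower one rose and the higher one fell. The log2 fold change was 1.91 (SE 0.226, adjusted p 4.0e-06) for SAP30-DT and −1.93 (SE 0.0732, adjusted p 1.0e-10) for SAP30. As a share of SAP30 counts, SAP30-DT went from 1.48 to 1.86% in DMSO to 23.4 to 25.2% in AZD4573. The difference of the pair was 3.78 (SE 0.146, adjusted p 1.3e-05), and 128 of the 9078 exon bases of SAP30-DT are shared with SAP30.

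A few further pairs show how levels crossed or neared each other. EMSY, a repressor that binds BRCA2, stood at 34.1, 36.3 and 38.5 CPM in DMSO and at 18.4, 15.3 and 14.9 in AZD4573. EMSY-DT, which shares no exon base with any gene, stood at 14.1, 12.8 and 12.9 CPM in DMSO and at 23.3, 23.5 and 23.9 in AZD4573. EMSY-DT counts were 33.4 to 41.3% of EMSY counts in DMSO and 126 to 161% in AZD4573, so that the order of the 2 genes turned. The rise of EMSY-DT was 0.93 (log2, adjusted p 2.5e-08) and the difference of the pair 2.0 (SE 0.168, adjusted p 0.00011). With mitochondrial scaling EMSY-DT was under the fold threshold (0.19), as was TMEM161B-DT (0.54).

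TMEM161B encodes a membrane protein. TMEM161B-DT stood at 5.13, 4.70 and 5.33 CPM in DMSO and at 11.5, 11 and 11.8 CPM in AZD4573, and TMEM161B at 15.9, 16.9 and 16.6 CPM and at 5.59, 4.69 and 5.11 CPM. The counts of the divergent transcript went from 27.8 to 32.2% of those of its partner to 207 to 233%, with no overlap between groups, and the difference of the pair was 2.85 (SE 0.145, adjusted p 1.9e-05). PAXIP1, which encodes a protein of MLL3/MLL4 histone methyltransferase complexes, stood at 84.9, 93.9 and 94.1 CPM in DMSO and at 57.2, 52.6 and 49.1 CPM in AZD4573. PAXIP1-DT stood at 11.2, 12.9 and 13.4 CPM in DMSO and at 16.7, 20.8 and 18.1 CPM in AZD4573, all AZD4573 libraries above the DMSO ones. Its log2 fold change was 0.68, and −0.063 with mitochondrial scaling, where the difference of the pair (1.35) does not depend on the scale.

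RPAP3 encodes a cochaperone that takes part in the assembly of RNA polymerases. RPAP3-DT stood at 0.144, 0.497 and 0.454 CPM in DMSO and at 0.633, 1.51 and 1.54 CPM in AZD4573, and the lowest AZD4573 library lay close to the highest DMSO library. Its log2 fold change was 1.88 (SE 0.422, adjusted p 0.0012), that of RPAP3 was −1.25, and the difference was 3.08 (SE 0.528, adjusted p 0.0022). Of the 6463 exon bases of RPAP3-DT, 3057 are shared with other genes, mostly with RAPGEF3. MIOS encodes a subunit of the GATOR2 complex, which acts upstream of mTORC1. MIOS-DT stood at 0.366, 0.540 and 0.340 CPM in DMSO and at 1.09, 1.5 and 1.49 CPM in AZD4573. The groups did not overlap, with a log2 fold change of 1.82 for MIOS-DT, −1.07 for MIOS and a difference of 2.83 (SE 0.224, adjusted p 9.4e-05).

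**Figure D3:**
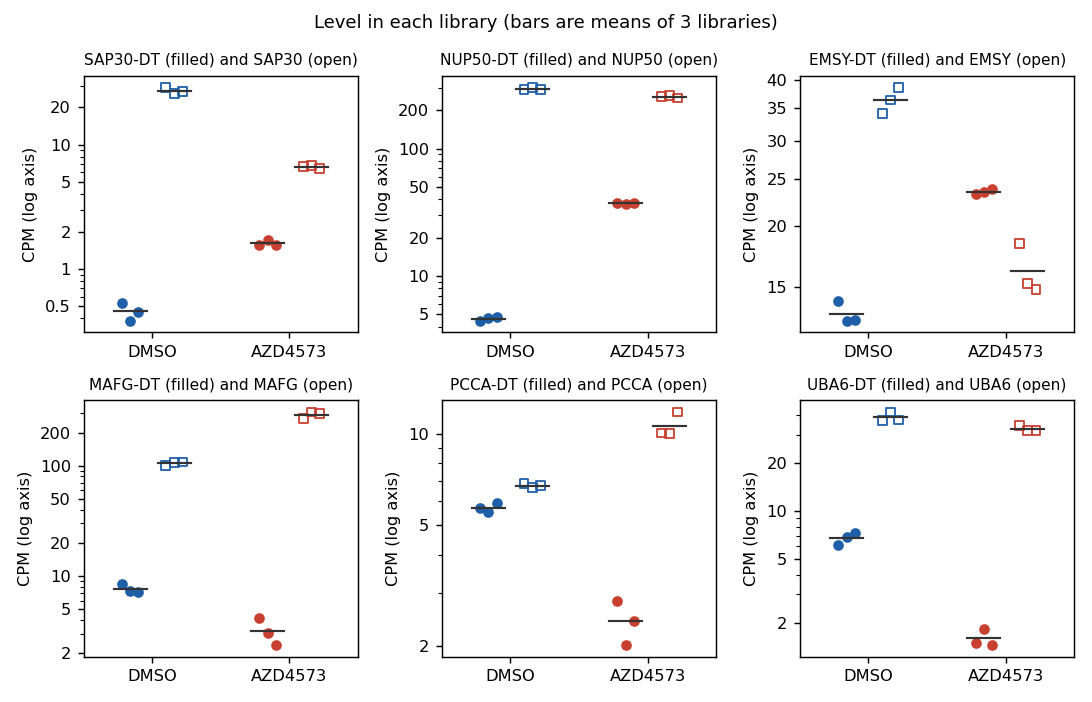
CPM of the divergent transcript (filled) and its partner (open) in each of the 3 DMSO and 3 AZD4573 libraries of 6 pairs, on log axes, with the mean of each group as a bar. The 2 genes approach each other for SAP30 and NUP50, change order for EMSY, and move away from each other for MAFG, PCCA and UBA6.

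The other 6 of the 8 largest rises came with partners that were not called. NUP50 encodes a nucleoporin of the nuclear basket. NUP50-DT (chr22:45133020-45163811) stood at 4.47, 4.72 and 4.75 CPM in DMSO and at 37.3, 36.6 and 37.4 CPM in AZD4573. These were the highest AZD4573 levels among the 8 largest rises of the named members, and NUP50-DT shares no exon base with another gene. NUP50 stood at 291, 301 and 289 CPM in DMSO and at 255, 259 and 249 CPM in AZD4573. The log2 fold change was 3.10 (SE 0.0639, adjusted p 1.6e-12) for NUP50-DT, against −0.10 for NUP50. NUP50-DT counts went from 1.54 to 1.64% of NUP50 counts to 14.1 to 15%, and the difference of the pair was 3.20 (SE 0.132, adjusted p 1.3e-05).

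STUB1 encodes the ubiquitin ligase CHIP. STUB1-DT stood at 0.222, 0.0711 and 0.170 CPM in DMSO and at 1.21, 1.53 and 0.846 CPM in AZD4573, with a log2 fold change of 3.03 (SE 0.385, adjusted p 8.3e-06) and a pair difference of 2.74. STUB1-DT reached the minimum of summed counts, and the mean of 1 CPM for named members, only through the AZD4573 libraries. Its fold rests on few DMSO counts (mean 0.154 CPM), which limits its size. STUB1-DT shares 417 of 1274 exon bases with another gene. CD2BP2 encodes a protein that binds the tail of CD2 and is a component of the U5 snRNP. CD2BP2-DT stood at 2.51, 2.46 and 2.47 CPM in DMSO and at 8.77, 11.6 and 9.59 CPM in AZD4573 (log2 fold change 2.12, pair difference 1.92), and shares 367 bases with CD2BP2. The AZD4573 libraries lay above the DMSO libraries for both members.

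TMEM30A encodes the accessory subunit of the lipid flippases. TMEM30A-DT stood at 1.93, 1.93 and 1.86 CPM in DMSO and at 6.74, 7.44 and 7.62 CPM in AZD4573, with a log2 fold change of 2.03, a pair difference of 2.22 and 3203 of 9474 exon bases shared with FILIP1. CSGALNACT2 encodes an enzyme of chondroitin sulfate synthesis. CSGALNACT2-DT, which shares no exon base, stood at 0.509, 0.455 and 0.482 CPM in DMSO and at 1.55, 2.02 and 2.01 CPM in AZD4573, a rise of 2.05 with a pair difference of 2.21. For these, as for C16orf95-DT with a rise of 2.10 (0.326 to 0.526 CPM in DMSO, 1.54 to 2.02 CPM in AZD4573), the groups did not overlap.

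Among the 19 members called lower, UBA6-DT lost the most of its level after PDCD6IP-DT under the rule for named genes. UBA6 encodes an E1 enzyme that activates ubiquitin and FAT10. UBA6-DT stood at 6.15, 6.86 and 7.24 CPM in DMSO and at 1.5, 1.83 and 1.44 CPM in AZD4573, while UBA6 stood at 37.1, 41.8 and 37.3 CPM and at 34.6, 32.0 and 32.2 CPM. The groups did not overlap for either gene, but lay far closer together for UBA6. The log2 fold change of UBA6-DT was −1.98 (SE 0.132, adjusted p 1.3e-08), that of UBA6 was −0.13 (adjusted p 0.064), and the difference was −1.84 (SE 0.172, adjusted p 0.00017).

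PDCD6IP encodes ALIX, a protein of the ESCRT machinery. PDCD6IP-DT stood at 0.888, 1.22 and 0.978 CPM in DMSO and at 0.211, 0.269 and 0.188 CPM in AZD4573, with a log2 fold change of −2.09 (SE 0.296, adjusted p 2.3e-05) and a pair difference of −1.71. EIF3J encodes a subunit of translation initiation factor eIF3. EIF3J-DT stood at 2.18, 3.11 and 2.88 CPM in DMSO and at 0.633, 0.673 and 0.705 CPM in AZD4573 (log2 fold change −1.91, pair difference −1.56), and shares 283 bases with CTDSPL2. Neither partner was called, at −0.25 for PDCD6IP and −0.29 for EIF3J.

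MOCS2 encodes molybdopterin synthase of molybdenum cofactor synthesis. MOCS2-DT stood at 1.38, 1.36 and 1.56 CPM in DMSO and at 0.326, 0.387 and 0.486 CPM in AZD4573, a log2 fold change of −1.72 against −0.08 for MOCS2. TBC1D22A-DT stood at 4.88, 4.55 and 4.90 CPM in DMSO and at 1.8, 2.22 and 1.8 CPM in AZD4573, a log2 fold change of −1.19 against 0.32 for TBC1D22A. ZMPSTE24 encodes the protease that matures lamin A. ZMPSTE24-DT stood at 4.23, 5.57 and 5.67 CPM in DMSO and at 1.42, 1.58 and 1.47 CPM in AZD4573, with a log2 fold change of −1.68 against −0.99 for ZMPSTE24. The groups did not overlap for the 3 members, and the pair difference of ZMPSTE24 (−0.67, adjusted p 0.022) missed the threshold when DMSO replicate 2, DMSO replicate 3, AZD4573 replicate 1 or AZD4573 replicate 3 was left out (−0.55 to −0.70, adjusted p 0.056 to 0.074).

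The member fell and the partner rose in MAFG, PCCA and ZNF8. Here too, choosing pairs by both calls makes a large pair difference mostly a given. MAFG is a small Maf transcription factor and a partner of NRF2. MAFG-DT stood at 8.54, 7.30 and 7.14 CPM in DMSO and at 4.15, 3.03 and 2.37 CPM in AZD4573, and MAFG at 101, 107 and 108 CPM and at 268, 307 and 298 CPM. The groups did not overlap for either gene. The log2 fold change was −1.18 (SE 0.161, adjusted p 1.7e-05) for MAFG-DT and 1.57 (adjusted p 6.5e-11) for MAFG, and the difference was −2.76 (SE 0.265, adjusted p 0.00019), the most negative of the 183 pairs.

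PCCA encodes a subunit of propionyl-CoA carboxylase of mitochondria. PCCA-DT stood at 5.71, 5.53 and 5.92 CPM in DMSO and at 2.82, 2.02 and 2.43 CPM in AZD4573, and PCCA at 6.84, 6.67 and 6.75 CPM and at 10.1, 10.0 and 11.8 CPM. The 2 genes were thus near each other in DMSO and apart in AZD4573, with log2 fold changes of −1.14 and 0.76 and a difference of −1.89. With mitochondrial scaling PCCA was not called (0.020, adjusted p 0.86). ZNF8 encodes a zinc finger protein. ZNF8-DT stood at 4.91, 5.47 and 5.03 CPM in DMSO and at 2.96, 2.41 and 2.66 CPM in AZD4573, a log2 fold change of −0.84 against 0.97 for ZNF8, with a difference of −1.81 and 414 bases shared with ZNF544. ZNF8 was under the fold threshold with mitochondrial scaling (0.24).

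**Figure D4:**
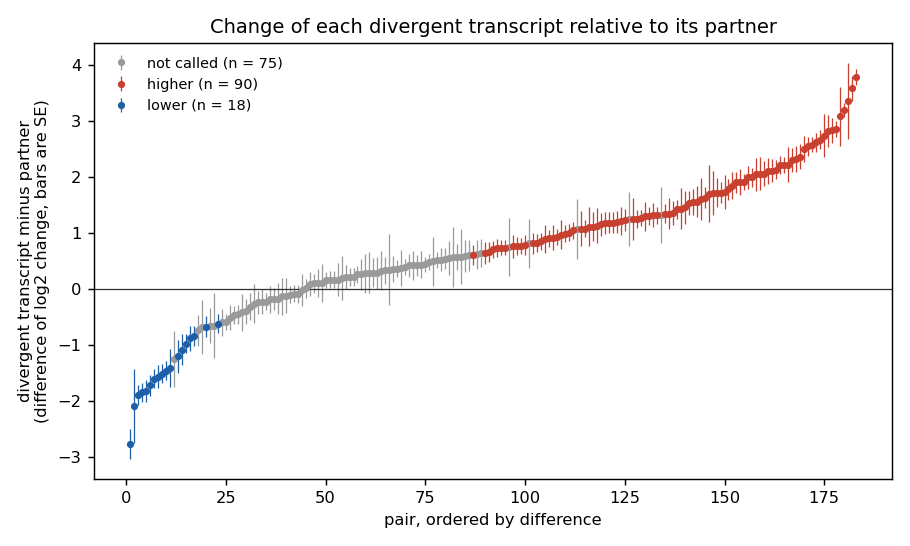
Difference between the log2 change of a divergent transcript and that of its partner (vertical axis), for 183 pairs ordered by that difference (horizontal axis, rank), with SE as bars and the limma call as colour. The pairs run from −2.76 (MAFG) to 3.78 (SAP30), and 139 of the 183 lie above 0.

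Both genes were higher in GMDS, MAP2K5, NFE2L1, PIWIL2, RPL34, SMIM14, YPEL3 and ZNF132. PIWIL2 is a germline gene that binds piRNAs, and it was near 0 in DMSO (0.0914, 0.0853 and 0.0283 CPM) and at 2.57, 2.64 and 2.73 CPM in AZD4573. PIWIL2-DT stood at 0, 0.128 and 0.0567 CPM in DMSO and at 0.461, 0.538 and 0.423 CPM in AZD4573. These are 0, 9 and 4 counts in DMSO, with 7, 6 and 2 for PIWIL2, so that PIWIL2-DT reached the minimum of 60 counts through the AZD4573 libraries and the ratio of the 2 genes in DMSO rests on very few counts. YPEL3-DT (mean 0.0592 CPM in DMSO, 0.296 in AZD4573) and SMIM14-DT (0.102 and 0.255) likewise reached that minimum mainly through the AZD4573 libraries, which limits their calls. ZNF132-DT and ZNF132 were at 1.62 and 1.39 (difference 0.22, adjusted p 0.28). Both genes were lower in APPBP2, ITPRID2, PRMT5, RRS1, USP27X, WDR5B and ZMPSTE24. PRMT5 encodes a methyltransferase of arginines, and its log2 fold change was −1.10 beside −1.12 for PRMT5-DT (difference 0.01, adjusted p 0.94). These and the PIWIL2 pair were named after their values were seen.

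The 6 most abundant members in DMSO took 27.5% of the summed level in DMSO and the 6 most abundant in AZD4573 took 33.0% there. FMNL1 encodes a formin of blood cells. FMNL1-DT, the most abundant, stood at 29.1, 37.6 and 39.5 CPM in DMSO and at 52.7, 52.1 and 52.6 CPM in AZD4573, with DMSO replicate 1 lowest. Its log2 fold change was 0.68 (adjusted p 7.3e-06), and −0.061 with mitochondrial scaling. The difference of the pair was 0.40 (adjusted p 0.044) and its adjusted p missed the threshold whichever library was left out (adjusted p 0.069 to 0.114) and with the replicate block (adjusted p 0.081). This difference was also under the 1.5-fold minimum, and 648 bases are shared with FMNL1.

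NIPBL encodes the loader of cohesin. NIPBL-DT stood at 17.4, 18.4 and 19.5 CPM in DMSO and at 13.7, 15.2 and 14.2 CPM in AZD4573, a log2 difference of −0.25 that was under the fold threshold, and NIPBL was at −0.42. CTBP1 encodes a corepressor. CTBP1-DT stood at 10.6, 12.2 and 10.9 CPM in DMSO and at 8.77, 7.81 and 8.70 CPM in AZD4573, at −0.31 also under the fold threshold, with CTBP1 at 0.28 and a pair difference of −0.58 (adjusted p 0.012), which was just under the 1.5-fold minimum and so not called, and whose adjusted p was 0.052 without DMSO replicate 2 (−0.52). WDR5B encodes a relative of the histone methyltransferase subunit WDR5. WDR5B-DT stood at 14.5, 14.5 and 15 CPM in DMSO and at 9.06, 9.02 and 8.98 CPM in AZD4573, and WDR5B at 8.44, 9.44 and 9.21 CPM and at 2.88, 2.76 and 3.04 CPM. Both fell without overlap of the groups, the partner by more (−1.53 against −0.60, difference 0.93, adjusted p 0.0011), and 1377 of the 2901 exon bases of WDR5B-DT are shared with KPNA1.

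The calls were also counted by overlap, position and level. For comparison, 22.7% of all genes tested were higher and 23.7% lower, and 41% of all named pairs had a higher ratio. Among the 94 members that share no exon base, 35 of 92 tested were higher and 11 lower, and 43 of 92 pairs had a higher ratio (median difference 0.62). Of the 55 members that share bases with their partner, 19 were higher and 2 lower, and 27 of 53 pairs had a higher ratio (median difference 0.77). Of the 38 that share bases only with other genes, 15 were higher and 6 lower. Members starting within 100 bases of the partner were higher in 23 of 68 and lower in 10, and those starting farther, up to 1000 bases away, in 43 of 102 and in 9. Of the 15 members starting over 1000 bases away, 3 were higher (20%) and 0 lower. By mean level over both groups, the 62 members of lowest level had 18 higher and 5 lower of 60 tested, the 62 of middle level 27 and 4, and the 63 of highest level 24 and 10. No test was made between these classes.

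Around the minimum of 60 counts, SEC61G-DT had 0 counts in each DMSO library and 26, 16 and 20 in the AZD4573 libraries (62 in all). NQO1-DT had 7, 5 and 15 in DMSO and 6, 13 and 16 in AZD4573 (62), and APCDD1L-DT 1, 6 and 8 and 19, 10 and 19 (63). Just outside were WDR5-DT with 59 counts (0, 11 and 4 in DMSO, 5, 11 and 28 in AZD4573), SMC2-DT with 58 (5, 3 and 7, then 16, 14 and 13) and MED28-DT with 58 (8, 8 and 5, then 18, 8 and 11). At this depth the DMSO counts of such members are too few to order the libraries, and SEC61G-DT was the only member with no count in a whole group.

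**Figure D5:**
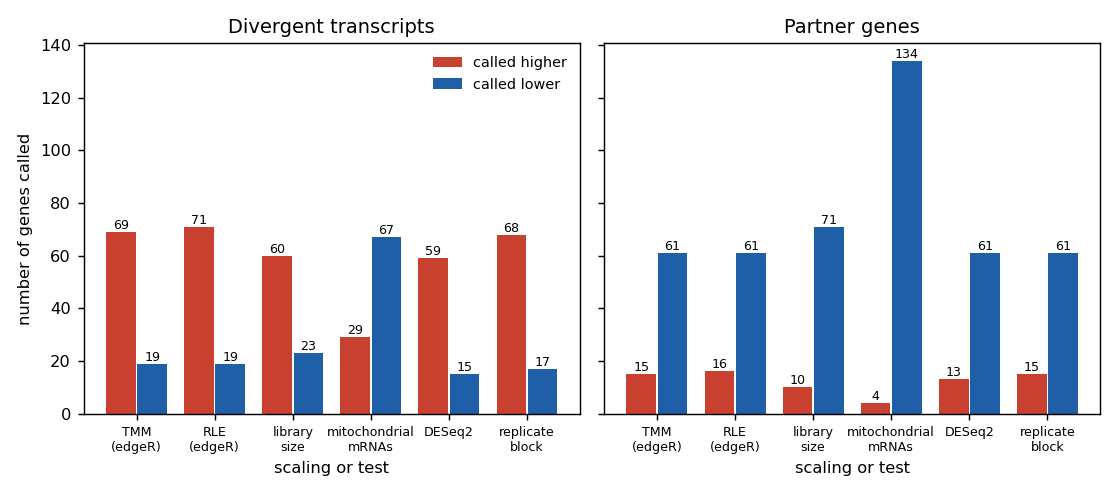
Number of genes called higher (red) and lower (blue) among the divergent transcripts (left) and the partner genes (right) under 4 scalings of the libraries in edgeR, with DESeq2 and with a replicate block. The higher calls outnumber the lower ones among divergent transcripts in each setting but mitochondrial scaling (29 against 67), and the lower calls outnumber the higher ones among partner genes in each of them.

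Genes of termination, RNA decay and the U1 snRNP, whose products act on divergent transcripts or on their balance with coding ones, were measured as a list of 61. Of these, 23 were lower and 1 higher upon AZD4573 treatment, with a median of −0.41, where 23.7% of all genes tested were lower and 22.7% higher. Each AZD4573 library lay below each DMSO library for 48 of them and above for 9, where 42.9% of all genes tested lay below and 34.2% above. With mitochondrial scaling 52 of the 61 were lower, as were 9433 of all 17678 genes tested.

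In the nuclear exosome, the 3′ to 5′ nuclease, 4 of 13 genes were lower. The others were not called, with DIS3 at 0.13, EXOSC10 at −0.29 and EXOSC5 at 0.39 (log2 fold change). EXOSC3, a cap subunit that binds RNA, stood at 42.4, 42.0 and 40.1 CPM in DMSO and at 13.1, 12.8 and 11.2 CPM in AZD4573 (log2 fold change −1.65), and EXOSC4 fell by 1.41, EXOSC6 by 0.86 and EXOSC2 by 0.67 on the log2 scale. Of the 8 genes of the adaptor complexes that bring RNA to the exosome, 5 were lower, while PABPN1 was at 0.33, under the fold threshold. MTREX, the helicase common to these adaptors, stood at 83.9, 78.9 and 78.6 CPM in DMSO and at 38.1, 32.1 and 30 CPM in AZD4573 (−1.17), and ZCCHC8, RBM7, ZC3H3 and RBM26 were at −0.83, −0.79, −0.63 and −0.60. Among the 5 cap-binding and ARS2 genes, NCBP3 (−1.31) and NCBP1 (−0.75) were lower.

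Integrator is a complex that cleaves nascent RNA near promoters, and 6 of its 14 genes found were lower. Each AZD4573 library lay below each DMSO library for 12 of the 14, and above for INTS11 (log2 fold change 0.24, not called). INTS6 stood at 29.0, 29.7 and 30.6 CPM in DMSO and at 5.70, 5.52 and 5.35 CPM in AZD4573 (log2 fold change −2.33), INTS7 was at −1.90 and INTS5 at −1.50, and INTS8, INTS12 and INTS13 were at −0.74 to −0.97. Of 18 genes of early termination and 3′ end cleavage, 6 were lower (CSTF1 −0.96, PPP1R10 −0.82, CLP1 −0.76, CSTF2 −0.67, CPSF4 −0.60 and CPSF2 −0.59). Under the fold threshold were, among others, CPSF1 (0.38), NUDT21 (0.18), CPSF3 (−0.13) and XRN2 (−0.04). The one gene called higher was PCF11, a termination factor that binds the polymerase tail, which stood at 54.3, 60.7 and 60 CPM in DMSO and at 99.2, 112 and 113 CPM in AZD4573 (log2 fold change 1.00). The 3 protein genes of the U1 snRNP (SNRNP70, SNRPA and SNRPC) were under the fold threshold, at 0.29 to 0.37.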

How the data were processed

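The libraries were bulk RNA-seq of H9 cells, 3 with DMSO and 3 with AZD4573, grouped by their labels. The labels describe poly(A) RNA, whereas the supplemental methods describe rRNA depletion, and the exposure is given as 4 h by the labels but longer in one place of the study. Per the labels and the study's methods, the authors trimmed reads with cutadapt 2.3, aligned them to GRCh38 with STAR 2.7.8a and deposited expected counts per gene from RSEM 1.3.3 (default parameters, which ignore strand). The deposited expected counts are whole numbers without normalization. The 5 reporter entries were left out of the 61541 genes. Total counts ranged from 52101868 to 76571157.

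Differential expression was computed with edgeR 4.0.16 in R 4.3.3 (minimum count 10, 17678 genes, TMM, quasi-likelihood test, Benjamini-Hochberg adjustment, fold change of at least 1.5). Pair ratios were tested with limma 3.58.1 (prior count 2) over 654 named pairs, called at an adjusted p under 0.05 and a difference of at least 1.5-fold. Errors of CPM are SD over libraries. Named members were the 8 largest rises and 8 largest falls (adjusted p under 0.05, no overlap of the groups and a mean of 1 CPM or more in one of them), the 6 highest in DMSO, the 5 largest and 5 smallest differences among the 98 pairs with both genes at a mean of 1 CPM or more in one group, and those next to the limit of 60 counts. Others are said to be named later. The values of 2 further genes are not reported here. The members and lists were chosen with earlier results of these data known. Alternatives were RLE, library size or mitochondrial scaling, other filters and thresholds, DESeq2 1.42.0, a replicate block and each library left out.

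Positions came from GENCODE release 44 and promoters from RefSeq (GRCh38.p14). On data simulated for AZD4573 against DMSO with 17678 genes, edgeR recovered 92 of 100 genes changed by a log2 fold of 1 and 96 of 100 changed by 2, and called 5 of 17478 unchanged genes. In this simulation few genes changed, equally up and down, with a single fixed dispersion. In the data 46.4% of genes tested were called, so the simulation does not test the scaling or the false calls there. On 638 simulated pairs, limma recovered 12 of 15 changed ones and called 0 of 623 others. Libraries of 1 group were not copies of each other (chi-square per gene 5.59 to 21.2).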

Additional observations from a re-analysis of the deposited data

How the results depend on the processing

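Deviations of same-numbered libraries from their group means were close to uncorrelated (−0.0209, 0.0417 and 0.0318). With 3 libraries in a group, this cannot show whether libraries of the same number were paired. With the replicate block, 68 members were higher and 17 lower, partners 15 and 61, decay and termination genes 1 and 23, and pair ratios 90 and 18. Leaving out single libraries, 61 to 68 members were higher and 16 to 19 lower, and 83 to 96 pair ratios higher and 14 to 20 lower. RLE factors gave 71 and 19 members, library size 60 and 23, no filter 62 and 22, DESeq2 59 and 15, and an adjusted p under 0.01 gave 58 and 15. With at least 10 counts in every library 63 members were higher and 12 lower, and 79 and 15 pair ratios were called. With a fold of at least 2, 44 members were higher and 14 lower, partners were 7 and 38, and decay and termination genes 0 and 7, while a pair difference of at least 1 left 70 and 13. Without members that share exon bases, 35 were higher and 11 lower, and 43 and 11 pair ratios were called, from fewer genes tested.

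Mitochondrial scaling moved the most: 29 members were higher and 67 lower, 4 and 134 partners, 0 and 52 decay and termination genes, and 1769 and 9433 of all genes. FMNL1-DT (−0.061), PAXIP1-DT (−0.063), STUB1 (−0.59), CD2BP2 (−0.56), C16orf95 (−0.42), TBC1D22A (−0.42), FMNL1 (−0.45) and CTBP1 (−0.46) changed sign there on the log2 scale, and PCCA was no longer called (0.020). Which scaling reflects RNA per cell was not tested. The summed level was 18.5% higher without NUP50-DT and 18.3% lower per mitochondrially encoded mRNA (−18.3%), both chosen after seeing the data. Of 898 values of named genes under these alternatives, 858 had the same sign and the same side of an adjusted p of 0.05. Depth limits the members under 1 CPM, whose counts give wide errors.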

Other observations

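These members were chosen after their values were seen. SNRPA1-DT stood at 0.183, 0.0426 and 0 CPM in DMSO and at 0.557, 1.06 and 1.03 CPM in AZD4573. These are 14, 3 and 0 counts in DMSO and 29, 63 and 66 in AZD4573, so that it reached the minimum of 60 counts through the AZD4573 libraries and no fold is given. SNRPA1-DT shares 1897 of its 2590 exon bases with PCSK6. SNRPA1, a U2 snRNP protein gene, was at 0.24. RNF139-DT, which shares no exon base, stood at 1.87, 1.99 and 1.90 CPM in DMSO and at 5.60, 5.89 and 6.47 CPM in AZD4573, while RNF139, a ubiquitin ligase gene, stood at 34.8, 34.4 and 31.6 CPM and at 16.6, 16.8 and 18.6 CPM.

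Among the pairs in which only the partner was called lower, MAP3K9 and BTG1 had the largest falls. BTG1, an antiproliferative gene, stood at 39.9, 40.8 and 39.0 CPM in DMSO and at 5.20, 5.60 and 5.93 CPM in AZD4573 (log2 fold change −2.73), whereas BTG1-DT stood at 1.51, 1.25 and 1.59 CPM and at 1.15, 1.41 and 1.3 CPM, with groups that overlapped (−0.06, adjusted p 0.77 by edgeR). MAP3K9, a kinase gene of the JNK pathway, was at −3.05, and MAP3K9-DT was at −0.63 (adjusted p 0.099), with AZD4573 libraries from 0.329 to 1.02 CPM.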
